A study of Homo sapiens with 6 samples.

Results

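TRPS1 and 6 genes that share its GATA-type zinc finger or its name were followed in MIA PaCa-2 cells, a line grown from a human pancreatic carcinoma. The genes were TRPS1, GATA2, GATA3, GATA4, GATA6, GATAD2A and GATAD2B, taken by symbol, and all 7 had a row of their own among the 18268 rows of the deposited table. One set of cells had lost LINC00901, a gene for a long non-coding RNA, by knockout (KO 1 to 3), and the other carried a control vector, called LCV2 in the titles (vector control 1 to 3). Both kinds were grown in DMEM with 10% fetal bovine serum and 2.5% horse serum, and total RNA was sequenced, with 3 libraries per group. The labels do not say whether the libraries came from separate cultures or from 1 or several clones, so the spread between them may be technical. TRPS1 was selected on its FPKM difference between these same libraries, and the others were chosen as its family with results known. The levels and fold changes of the 7 genes are therefore given as a description, with no test.

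GATA factors are transcription factors that bind the DNA word GATA through zinc fingers, small protein loops in which 4 cysteines hold a zinc ion. GATA2 and GATA3 are best known from blood and breast, GATA4 and GATA6 from heart, gut and pancreas, and GATA6 is a marker of the classical, better differentiated form of pancreatic cancer. TRPS1 carries a finger of the same type but acts mainly as a repressor, shapes cartilage and hair, and is strongly expressed in breast epithelium. GATAD2A and GATAD2B do not act as sequence-reading GATA factors. They are scaffold subunits of NuRD, a complex that removes acetyl groups from histones and slides nucleosomes.

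The finger itself shows how close the genes are. The coding sequences of the last GATA-type finger are shown for 5 members, read from GENCODE 29 transcripts, 5′ to 3′ on the coding strand. Capitals mark the codons of the 4 cysteines that hold the zinc. Positions are on GRCh38, whereas the authors mapped to hg19, so they serve only to place the sequences.
GATA2, exon 5, chr3:128481843-128481917, minus strand: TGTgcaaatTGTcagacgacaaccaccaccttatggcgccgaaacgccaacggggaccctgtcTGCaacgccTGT
GATA3, exon 5, chr10:8069500-8069574, plus strand: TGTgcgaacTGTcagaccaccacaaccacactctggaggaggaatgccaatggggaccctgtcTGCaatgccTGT
GATA6, exon 4, chr18:22181480-22181554, plus strand: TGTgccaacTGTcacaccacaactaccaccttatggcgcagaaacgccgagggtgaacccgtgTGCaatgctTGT
GATAD2A, exon 9, chr19:19501165-19501239, plus strand: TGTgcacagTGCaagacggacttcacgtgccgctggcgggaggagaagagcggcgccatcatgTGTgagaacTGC
GATAD2B, exon 8, chr1:153813337-153813411, minus strand: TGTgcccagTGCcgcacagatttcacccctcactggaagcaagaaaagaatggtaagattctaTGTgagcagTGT
Each is 75 bases, or 25 codons. GATA2 and GATA3 encode the same residue at 25 of the 25 codons, yet their bases agree at 60 of 75. The single matching finger of TRPS1 encodes the same residue as GATA2 or GATA3 at 19 codons, as GATA4 or GATA6 at 18 and as GATAD2A or GATAD2B at 10. GATAD2A and GATAD2B share 16 with each other. Within this stretch, the only one compared, no pair of the 7 members agreed at more than 61 of 75 bases.

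The values were FPKM, fragments scaled for transcript length and sequencing depth, so levels of different genes can be set side by side. Their total ran from 123107 in KO 1 to 134389 in vector control 3. The depth in reads is unknown, and the number of libraries sets the precision. No row named LINC00901, so the loss of the gene could not be checked, and directions follow the sample labels. All 13 rows of mitochondrially encoded genes held 0 throughout, although cells depend on these genes, so a 0 is reported only as a listed value. Of the epithelial markers, KRT18 lay at 28.78 FPKM or more in each library, whereas the adhesion genes EPCAM and CDH1 reached at most 0.14 and 0.02 FPKM. The summed level of 6 epithelial markers was 65.93 to 83.69 FPKM in KO libraries and 108.28 to 160.05 FPKM in vector controls. That of 7 fibroblast markers was 68.17 to 96.9 FPKM in KO libraries and 69.02 to 99.04 FPKM in vector controls. Within the fibroblast sum, the collagen gene COL1A2 lay higher in KO cells and COL3A1 lower. COL1A2 had 51.58, 56.18 and 50.63 FPKM in KO 1, 2 and 3, against 24.72, 35.84 and 34.3 FPKM in vector control 1, 2 and 3. COL3A1 had 41.24, 18.78 and 16.46 FPKM in KO cells, against 43.1, 61.2 and 62.02 FPKM in vector control cells. In the limma test described below, neither COL1A2 (adjusted p = 0.119) nor COL3A1 (adjusted p = 0.164) passed. The third fibroblast marker tested, COL1A1, overlapped between the groups and did not pass limma (adjusted p = 0.467). Leukocyte markers summed to 1.2 to 1.83 FPKM in KO libraries, all of it LYZ, and to at most 0.68 FPKM in vector controls, with PTPRC, CD3E and HBB listed at 0 in all 6 libraries, as was the fibroblast gene DCN. Endothelial markers summed to at most 0.43 FPKM.

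TRPS1 transcript was scarce in vector control cells and abundant in KO cells. It had 11.77, 11.31 and 13.30 FPKM in KO 1, 2 and 3, against 2.80, 1.5 and 1 FPKM in vector control 1, 2 and 3. The groups did not overlap, and the lowest KO library stood 4.04 times above the highest vector control. Group means were 12.1 ± 1.04 FPKM in KO cells and 1.77 ± 0.929 FPKM in vector control cells (SD, n = 3 each), a ratio of 6.86. The log2 fold change was 2.30 (SE 0.25) on the log2(FPKM + 1) scale, the 3rd highest among the 9624 rows with at least 1 FPKM in at least 3 libraries. TRPS1 reached that filter in all 6 libraries, so it did not enter through the KO group alone. In bulk RNA, fewer cells with a transcript and less of it per cell cannot be told apart. Leaving out vector control 1, the control with most TRPS1, raised the log2 fold change to 2.55, and leaving out vector control 3 lowered it to 2.09.

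**Figure D1:**
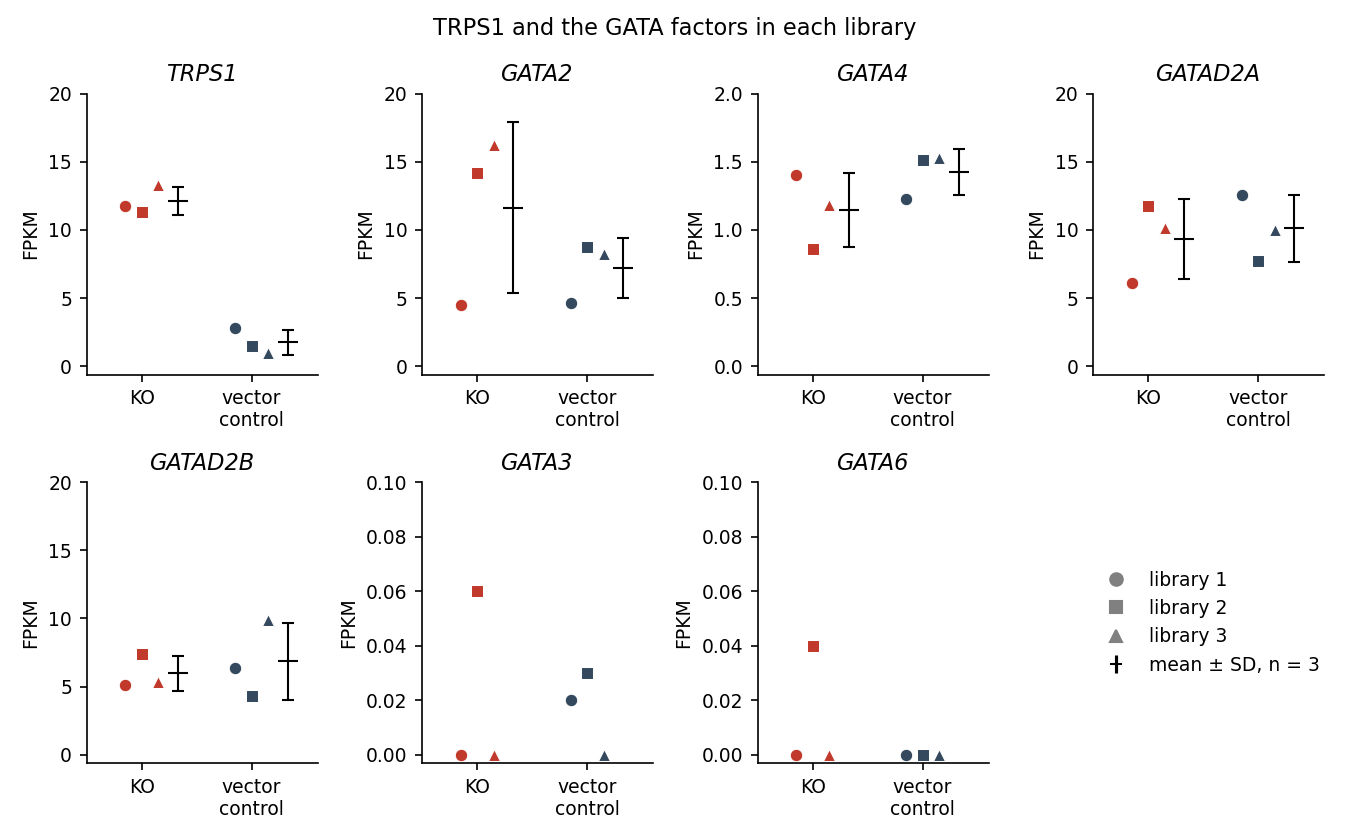
FPKM of each gene in every library, KO on the left and vector control on the right of each panel. Symbols mark the libraries and black bars the mean ± SD of 3 libraries, left out for GATA3 and GATA6, whose panels run only to 0.10 FPKM. TRPS1 lies between 11.31 and 13.30 FPKM in KO cells and between 1 and 2.80 FPKM in vector control cells, whereas the groups of every other gene overlap.

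GATA2 was the GATA factor with most transcript, and its KO libraries differed more among themselves than the group means did. Its level was 4.50, 14.19 and 16.21 FPKM in KO 1, 2 and 3, against 4.68, 8.72 and 8.22 FPKM in vector control 1, 2 and 3. Library 1 was the lowest of each group, and KO 1 lay below all 3 vector controls. The log2 fold change of 0.50 (SE 0.45) was about the size of its standard error. It ran from 0.20 without KO 3 to 1.02 without KO 1, so the size of this difference depended on KO 1.

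GATA4, which with GATA6 specifies the early pancreas, stood near the detection filter in both groups. Its values were 1.40, 0.86 and 1.18 FPKM in KO 1, 2 and 3, against 1.23, 1.51 and 1.53 FPKM in vector control 1, 2 and 3. The groups overlapped through KO 1, and the log2 fold change was -0.18 (SE 0.15). GATA6 was listed at 0 in KO 1, in KO 3 and in every vector control, with 0.04 FPKM in KO 2. GATA3 was listed at 0 in KO 1 and KO 3 and had 0.06 FPKM in KO 2, against 0.02, 0.03 and 0 FPKM in vector control 1, 2 and 3. Neither reached the filter in any library, and a difference in them could not be seen here. Of the other classical GATA genes, GATA5 was listed at 0 in all 6 libraries and GATA1 had at most 0.1 FPKM.

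The NuRD scaffold genes were expressed at moderate levels in both groups. GATAD2A had 6.11, 11.77 and 10.14 FPKM in KO 1, 2 and 3, against 12.59, 7.72 and 10.03 FPKM in vector control 1, 2 and 3. GATAD2B had 5.10, 7.43 and 5.38 FPKM in KO cells, against 6.36, 4.33 and 9.87 FPKM in vector control cells. Both overlapped between the groups, and KO 1 was the lowest and KO 2 the highest KO library of each gene, whereas the vector controls stood in different orders. The log2 fold changes were -0.12 (SE 0.27) for GATAD2A and -0.13 (SE 0.28) for GATAD2B. Summed over both genes, the level ran from 11.2 to 19.2 FPKM in KO libraries and from 12.1 to 19.9 FPKM in vector control libraries.

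The order of the levels differed between the groups mainly in the place of TRPS1. In KO cells TRPS1 (12.1 ± 1.04 FPKM) stood first by mean, then GATA2 (11.6 ± 6.26), GATAD2A (9.34 ± 2.91), GATAD2B (5.97 ± 1.27) and GATA4 (1.15 ± 0.272; SD, n = 3 for each). By library, GATA2 lay above TRPS1 in KO 2 and KO 3, and the low GATA2 level of KO 1 lowered its mean. Neighbours among the first 4 overlapped in their libraries, and GATA4 lay below them without overlap. In vector control cells the order was GATAD2A (10.1 ± 2.44 FPKM), GATA2 (7.21 ± 2.2), GATAD2B (6.85 ± 2.80), TRPS1 (1.77 ± 0.929) and GATA4 (1.42 ± 0.168; SD, n = 3 for each). There TRPS1 lay below the first 3 without overlap and overlapped with GATA4.

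Read as shares of the DNA-binding members, TRPS1 stood highest in library 1 of each group, and libraries 2 and 3 lay closer together. Of the summed FPKM of TRPS1, GATA2, GATA3, GATA4 and GATA6, TRPS1 made up 66.6%, 42.7% and 43.3% in KO 1, 2 and 3, against 32.1%, 12.8% and 9.30% in vector control 1, 2 and 3. The sum itself was 17.7, 26.5 and 30.7 FPKM in KO 1, 2 and 3, against 8.73, 11.8 and 10.8 FPKM in vector control 1, 2 and 3. In KO 1 the large share of TRPS1 stood beside the low level of GATA2, and TRPS1 exceeded GATA2 2.62 times there. In KO 2 and KO 3 that ratio was 0.797 and 0.820, and in the vector controls it was 0.598, 0.172 and 0.122.

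**Figure D2:**
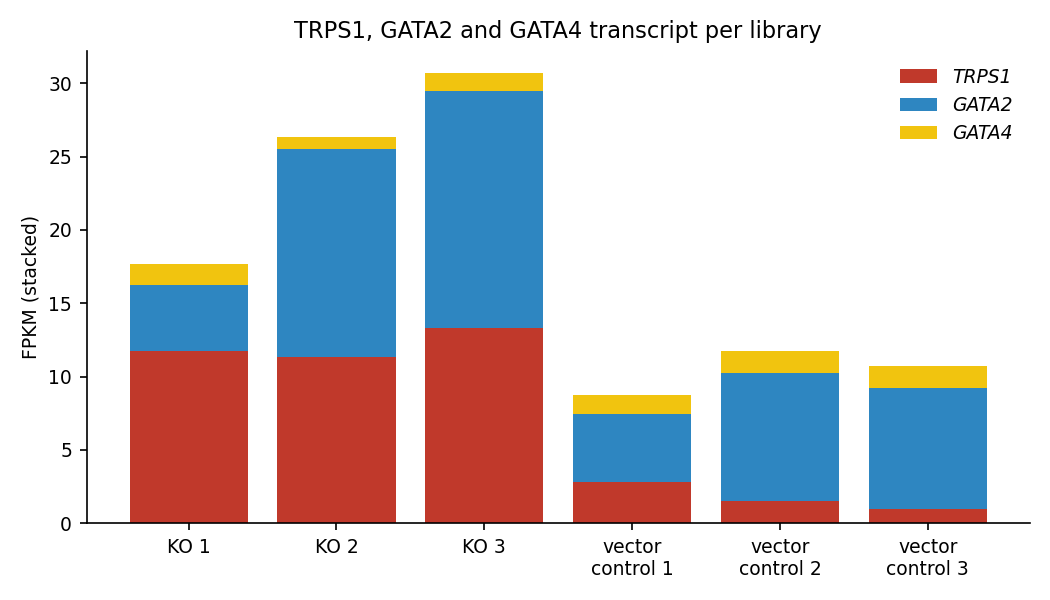
Stacked FPKM of TRPS1, GATA2 and GATA4 in each library, with KO 1 to 3 on the left and vector control 1 to 3 on the right; GATA3 and GATA6 are too low to show. The TRPS1 part is between 11.31 and 13.30 FPKM in KO libraries and at most 2.80 FPKM in vector controls, whereas the GATA2 part is lowest in library 1 of both groups.

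Among the 5 members that reached the filter, TRPS1 was the 1 counted as called by limma at an adjusted p below 0.05, where 1.35% of all tested rows were called. It was also the single one whose groups did not overlap, as in 23.8% of all tested rows (KO above in 15.4%, KO below in 8.35%). TRPS1 was selected on its values in this same contrast, which fixed these counts, and they are no test of it. TRPS1 was not among the rows called without KO 2, without KO 3 or with the replicate number as a block. GATA3 and GATA6 stayed below the filter. Over the whole tested table, log2 fold changes had a median of 0.08.

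**Figure D3:**
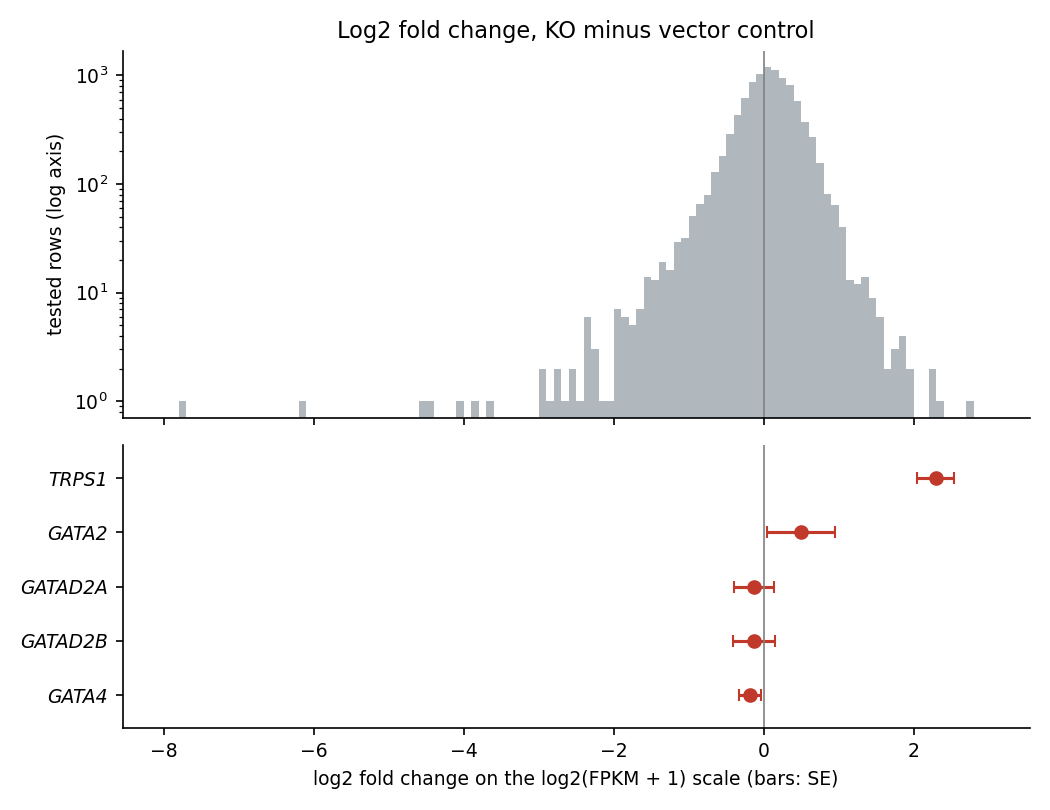
Log2 fold changes (KO minus vector control) of all 9624 tested rows as a histogram with a log count axis, above those of the 5 members that reached the filter, with bars for the SE. TRPS1 at 2.30 lies in the thin upper tail, and the other 4 lie between -0.18 and 0.50.

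None of the tested chromosome 8 neighbours of TRPS1 passed the test. Among coding genes of GENCODE 29, CSMD3 precedes TRPS1 and EIF3H, a subunit gene of a translation initiation factor, follows it. Of 13 neighbours with a row, 6 reached the filter and limma called 0 of them. At an unadjusted p below 0.05 lay 0 of the 6, against 17.5% of all tested rows. CSMD3 had 2.43, 1.81 and 2.32 FPKM in KO 1, 2 and 3, against 1.41, 2.22 and 2.05 FPKM in vector control 1, 2 and 3 (log2 fold change 0.15). EIF3H had 19.04, 14.22 and 17.69 FPKM in KO cells, against 21.79, 19.47 and 15.39 FPKM in vector control cells, with overlap (-0.14). The log2 fold changes were -0.06 for UTP23, which acts in ribosome assembly, and -0.20 for the Mediator subunit gene MED30. The cohesin subunit gene RAD21 (-0.28) and the heparan sulfate polymerase gene EXT1 (-0.33) lay lower in KO cells without overlap. Of all tested rows, 8.35% lay so, and neither gene passed. KCNV1, AARD, SLC30A8 and SAMD12 were listed at 0 in all 6 libraries, and TNFRSF11B, COLEC10 and MAL2 reached at most 0.12 FPKM.

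Genes that work beside TRPS1 and the GATA factors were next read from lists of textbook partners. Across these lists, the marker lists and the chromosome 8 neighbours above, 61 rows were tested. Limma called 1 of the 61 as higher and 1 as lower in KO cells. Of all tested rows, 0.509% and 0.842% were called in those directions. The row called as higher is LYZ, which reached the filter through the KO libraries alone and so had to differ. At an unadjusted p below 0.05 lay 22 of the 61 rows and 17.5% of all tested rows, the share against which the counts of each list are to be read. The median log2 fold change of the 61 was -0.03, against 0.08 over all tested rows. The lists were drawn up with earlier results of these data known.

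NuRD, the complex of GATAD2A and GATAD2B that is also found with TRPS1, had 8 subunit genes above the filter besides those 2. Limma called 0 of them (1 at an unadjusted p below 0.05), and their median log2 fold change was -0.10. The histone deacetylase gene HDAC1 averaged 43.8 ± 6.25 FPKM in KO cells and 46.4 ± 1.62 FPKM in vector control cells (SD, n = 3 each). The histone-binding subunit genes RBBP7 and RBBP4 had log2 fold changes of -0.03 and 0.11. MTA2, itself a protein with a GATA-type finger and named here after its values were seen, had 16.87, 14.65 and 14.15 FPKM in KO cells, against 19.85, 18.97 and 20.36 FPKM in vector control cells. The MTA2 groups did not overlap, and the log2 fold change of -0.36 did not pass limma (adjusted p = 0.254). The remodeller gene CHD4 had a row only together with NOP2 and was not tested with this list.

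Cofactors of GATA factors lay mostly a little higher in KO cells, and none passed. Of 9 tested genes limma called 0 (4 at an unadjusted p below 0.05), where 17.5% of all tested rows reached that p. The median log2 fold change was 0.32, and 8 of the 9 lay above 0, as did 59.3% of all tested rows. In 5 of the 9 the KO libraries lay above every vector control, as in 15.4% of all tested rows. SSBP2, which is among the 4, the 8 and the 5, reached the filter through KO libraries alone and so had to lie higher. The acetyltransferase gene EP300 had 8.98, 9.64 and 8.33 FPKM in KO 1, 2 and 3, against 8.05, 5.74 and 5.53 FPKM in vector control 1, 2 and 3 (log2 fold change 0.44, limma adjusted p = 0.265). EP300 was called without vector control 1 (0.59, limma adjusted p = 0.0352), when 13.8% of all tested rows were called. TCF3, which encodes an E-box factor of the GATA and LMO2 complex, had a log2 fold change of 0.08, and the Mediator gene MED1 had 0.10. The FOG cofactor genes, which bind the first finger of GATA factors, were low, with ZFPM1 at no more than 0.6 FPKM in any library.

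The other corepressor genes gave no call either. Of 13 tested, limma called 0 (3 at an unadjusted p below 0.05), and the median log2 fold change of 0.08 equalled that of all tested rows at this precision. RCOR1, the scaffold of the CoREST complex, had 31.89, 17.17 and 27.53 FPKM in KO 1, 2 and 3, against 20.50, 7.23 and 7.89 FPKM in vector control 1, 2 and 3. Vector control 1 lay above KO 2, so the groups overlapped, and the log2 fold change of 1.15 (SE 0.40) did not pass limma (adjusted p = 0.221). Without vector control 1 it was 1.59 and was called (limma adjusted p = 0.0223), as were 13.8% of all tested rows. Its partner KDM1A, the LSD1 demethylase gene, averaged 21.3 ± 3.29 FPKM in KO cells and 21.4 ± 3.23 FPKM in vector control cells (SD, n = 3 each). HDAC3, the deacetylase gene of the NCoR complex, had a log2 fold change of 0.20. Of other genes with a GATA-type finger, RERE, an atrophin family corepressor gene, had 3.64, 3.41 and 3.66 FPKM in KO cells, against 2.32, 2.43 and 2.33 FPKM in vector control cells. The RERE groups did not overlap, yet the log2 fold change of 0.44 did not pass limma (adjusted p = 0.175). GATAD1 had a log2 fold change of -0.12.

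Genes of the endoderm programme in which GATA4 and GATA6 act had low listed values. None of 15 partner genes reached the filter, and SOX17 and PTF1A were listed at 0 in all 6 libraries. HNF4A reached at most 0.03 FPKM and FOXA1 at most 0.15 FPKM. The epithelial factor gene ELF3 had 0.53, 0.91 and 0.57 FPKM in KO cells, against 0.24, 2.19 and 2.23 FPKM in vector control cells, with vector control 1 lowest of all. ONECUT2 had 0.59, 0.56 and 0.53 FPKM in KO cells, against 1.52, 1.15 and 0.83 FPKM in vector control cells. ONECUT1 lay the other way, with 0.31, 0.38 and 0.23 FPKM in KO cells, against 0.16, 0.03 and 0.04 FPKM in vector control cells. The list therefore had no common direction, and the genes named from it were picked after their values were seen. KLF5, which keeps epithelial cells proliferating, had 0.21, 0.18 and 0.18 FPKM in KO cells, against 0.91, 1.12 and 0.88 FPKM in vector control cells. When all rows above 0 in any library were tested, limma called KLF5 as lower in KO cells (log2 fold change -0.73, adjusted p = 0.0125). In that setting 1.67% of the rows tested were called.

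Of 21 genes of the classical tumour form marked by GATA6, 20 stayed below the filter. Of these, 10 were listed at 0 in all 6 libraries, which in this table need not mean absence, and the others reached at most 0.5 FPKM. LYZ, the lysozyme gene, was the 1 tested. It had 1.45, 1.83 and 1.20 FPKM in KO 1, 2 and 3 and was listed at 0 in every vector control. Its call by limma (adjusted p = 0.00799) is no independent result, since LYZ entered the test only by being high in KO libraries, and leaving out vector control 2 (limma adjusted p = 0.0507) or vector control 3 (adjusted p = 0.0528) ended the call. Of the basal-like genes, which mark the opposite form, 6 were tested and limma called 0 (4 at an unadjusted p below 0.05, against 17.5% of all tested rows). The glucose transporter gene SLC2A1 had 5.65, 8.62 and 8.58 FPKM in KO cells, against 13.90, 20.11 and 20.62 FPKM in vector control cells (log2 fold change -1.16, limma adjusted p = 0.0653), called without vector control 1 (limma adjusted p = 0.0181), when 13.8% of all tested rows were. The EGF receptor ligand gene AREG had 5.30, 14.79 and 13.11 FPKM in KO cells, against 6.72, 3.99 and 3.37 FPKM in vector control cells. KO 1 fell within the range of the controls for AREG, and the log2 fold change of 1.02 did not pass limma (adjusted p = 0.242). The protease gene CTSV, listed under its older symbol CTSL2, had -0.20.

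Luminal genes that accompany GATA3 and TRPS1 in breast epithelium were divided. ESR1, PGR and FOXA1 were among the 8 below the filter, where no gene exceeded 0.55 FPKM. Of the 5 tested, limma called 0 (3 at an unadjusted p below 0.05, against 17.5% of all tested rows), with a median log2 fold change of -0.76. KRT18, a keratin gene of simple epithelia, had 58.00, 28.78 and 35.53 FPKM in KO cells, against 79.42, 70.41 and 78.29 FPKM in vector control cells (log2 fold change -0.94, limma adjusted p = 0.147). XBP1, a factor of the secretory pathway, had 15.86, 18.40 and 20.33 FPKM in KO cells, against 26.53, 39.95 and 40.42 FPKM in vector control cells (-0.91, limma adjusted p = 0.0990). KRT19 overlapped between the groups, at -0.76. TFAP2A, an AP-2 factor gene named after its values were seen, lay the other way, with 17.51, 11.99 and 16.17 FPKM in KO cells, against 7.05, 7.57 and 7.38 FPKM in vector control cells (0.95, limma adjusted p = 0.0560). KRT18, XBP1 and TFAP2A did not overlap between the groups, as in 23.8% of all tested rows, yet none of them passed. Without vector control 1, when 13.8% of all tested rows were called, limma called XBP1 (adjusted p = 0.0131) and TFAP2A (adjusted p = 0.0317). Without KO 1, when 1.26% of all tested rows were called, limma called KRT18 (adjusted p = 0.0338). The summed epithelial markers given above were lower in KO libraries, but they hold KRT18 and KRT19 and so are no separate result. Their part in these values was not tested.

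Mesenchymal transition regulators were few above the filter. Of 4 tested, SNAI2, which encodes SLUG, fell by limma (log2 fold change -2.35, SE 0.21, adjusted p = 0.00481). It had 0.43, 1.01 and 1.38 FPKM in KO 1, 2 and 3, against 8.50, 8.55 and 8.90 FPKM in vector control 1, 2 and 3. The groups did not overlap. SNAI1, the SNAIL gene, had 3.46, 2.59 and 3.29 FPKM in KO cells, against 1.48, 13.03 and 13.28 FPKM in vector control cells. Vector control 1 lay below every KO library for SNAI1, and the log2 fold change was -0.95. Without vector control 1 it was -1.79 and was called (limma adjusted p = 0.00459), as were 13.8% of all tested rows. ZEB1 lay at -0.17 and VIM at -0.12, both overlapping, and ZEB2 was listed at 0 in every library but KO 2, where it had 0.01 FPKM.

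Growth plate genes, from the cartilage setting in which TRPS1 is best known in mouse and human, had 3 of 15 members above the filter. Limma called 0 of them (2 at an unadjusted p below 0.05, against 17.5% of all tested rows). SOX9, the master factor of cartilage and a marker of pancreatic ducts, had 34.35, 33.20 and 32.52 FPKM in KO 1, 2 and 3, against 31.22, 7.75 and 8.26 FPKM in vector control 1, 2 and 3. Vector control 1 stood close to the KO libraries, and the log2 fold change of 1.32 (SE 0.47) did not pass limma (adjusted p = 0.229). Without vector control 1 it was 1.93 and was called (limma adjusted p = 0.00202), as were 13.8% of all tested rows. The BMP receptor gene BMPR1A had 0.74, with KO libraries above every vector control, as in 15.4% of all tested rows (limma adjusted p = 0.143). Without vector control 1 BMPR1A was called too (0.92, limma adjusted p = 0.0156). STAT3 had a log2 fold change of -0.04. GLI3, whose protein binds TRPS1 in mouse, had 0.03, 0.09 and 0.11 FPKM in KO cells, against 0.45, 0.48 and 0.37 FPKM in vector control cells, all below the filter. COL10A1, also below it, lay the other way, with 0.50, 0.62 and 0.82 FPKM in KO cells, against 0.32, 0.20 and 0.23 FPKM in vector control cells. When all rows above 0 were tested, limma called GLI3 as lower in KO cells (log2 fold change -0.41, adjusted p = 0.0245), and 1.67% of the rows tested there were called.

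**Figure D4:**
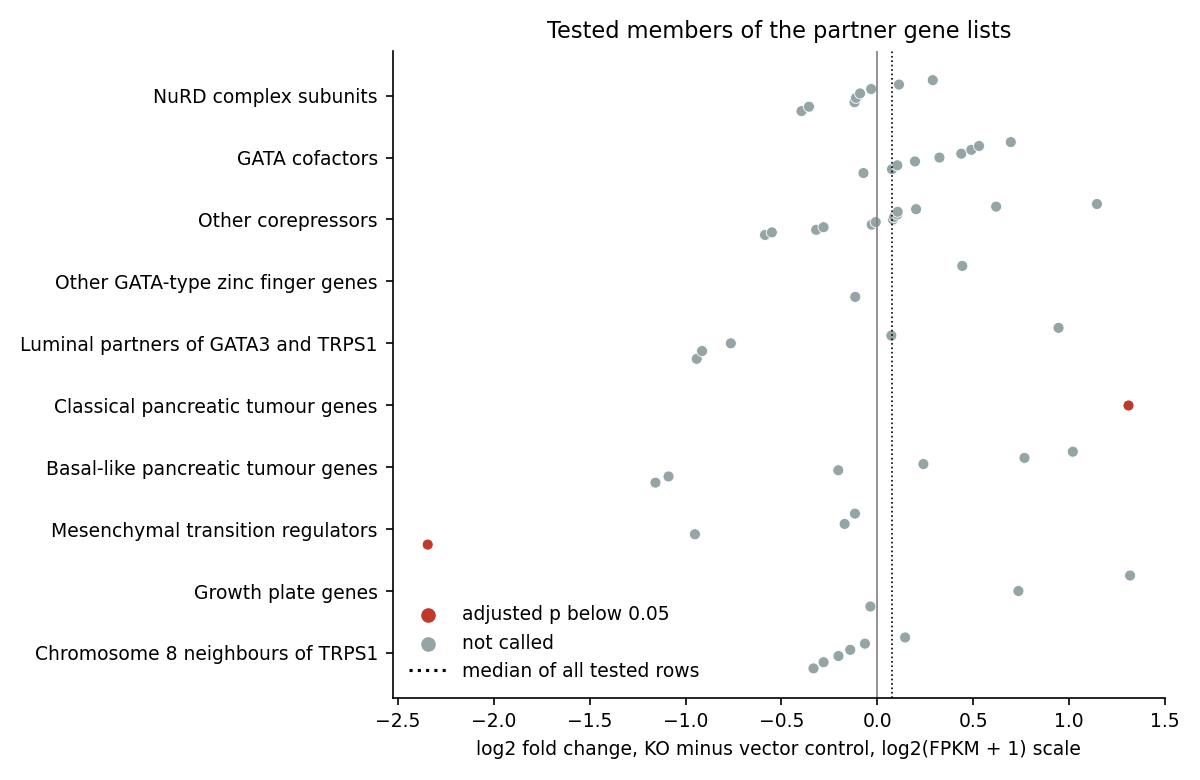
Log2 fold changes (KO minus vector control) of the tested members of each partner list, 1 point per gene, with a dotted line at the median of all tested rows. The red points, past an adjusted p of 0.05, are LYZ, fitted against controls listed at 0 and so no measure of fold, and SNAI2 at -2.35, and the cofactor list lies mostly right of 0.

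Rows whose pattern over the 6 libraries was closest to that of TRPS1 were found by the root mean square difference of log2(FPKM + 1), each row centred on its own mean. TRPS1 itself had a spread of 1.18 on this measure. The closest row was MOB1A, a Hippo pathway activator gene, at a difference of 0.284. It had 48.13, 52.00 and 51.46 FPKM in KO 1, 2 and 3, against 21.66, 12.63 and 10.63 FPKM in vector control 1, 2 and 3, so that vector control 1 was the highest control for both genes. Next came the histone gene HIST1H2AC (0.397), the core fucosyltransferase gene FUT8 (0.422), the joined row PIK3R3;AL358075;P3R3URF (0.431) and the kallikrein gene KLK5 (0.447). HIST1H2AC has near-identical copies, and its value depends on how shared reads were assigned.

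Rows that mirrored TRPS1 came closer still. The laminin chain gene LAMB3 differed from the inverted TRPS1 pattern by 0.166, with 0.01, 0.03 and 0.03 FPKM in KO cells, against 3.06, 4.34 and 4.39 FPKM in vector control cells. The other mirrored rows were the HLA class II genes HLA-DRB1 (0.191) and HLA-DRA (0.243), TNFAIP3 (0.215), which encodes an inhibitor of NF-kB signalling, and RGS5 (0.233), a regulator of G protein signalling. HLA-DRB1 and HLA-DRA were listed at 0 in all 3 KO libraries. LAMB3, HLA-DRB1, HLA-DRA and RGS5 reached the filter through the vector controls alone and so had to lie lower in KO cells. TNFAIP3 reached it in every vector control and, among KO libraries, in KO 2 only (1.18 FPKM). Their closeness to the inverted TRPS1 pattern is therefore no independent result.

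GATA2 kept other company. The same measure, applied to GATA2 after its values were seen, gave a spread of 0.628 for GATA2 itself and placed DHRS2, a short-chain dehydrogenase gene, closest at 0.112. DHRS2 had 0.29, 2.62 and 2.37 FPKM in KO 1, 2 and 3, against 0.13, 1.24 and 1.03 FPKM in vector control 1, 2 and 3. The closest mirrored row was NCOA7 at 0.101, with 18.12, 4.57 and 4.66 FPKM in KO 1, 2 and 3, against 16.42, 8.83 and 8.72 FPKM in vector control 1, 2 and 3. In DHRS2 as in GATA2, library 1 was the lowest of each group, and in NCOA7 it was the highest. These likenesses rest on 6 libraries.

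**Figure D5:**
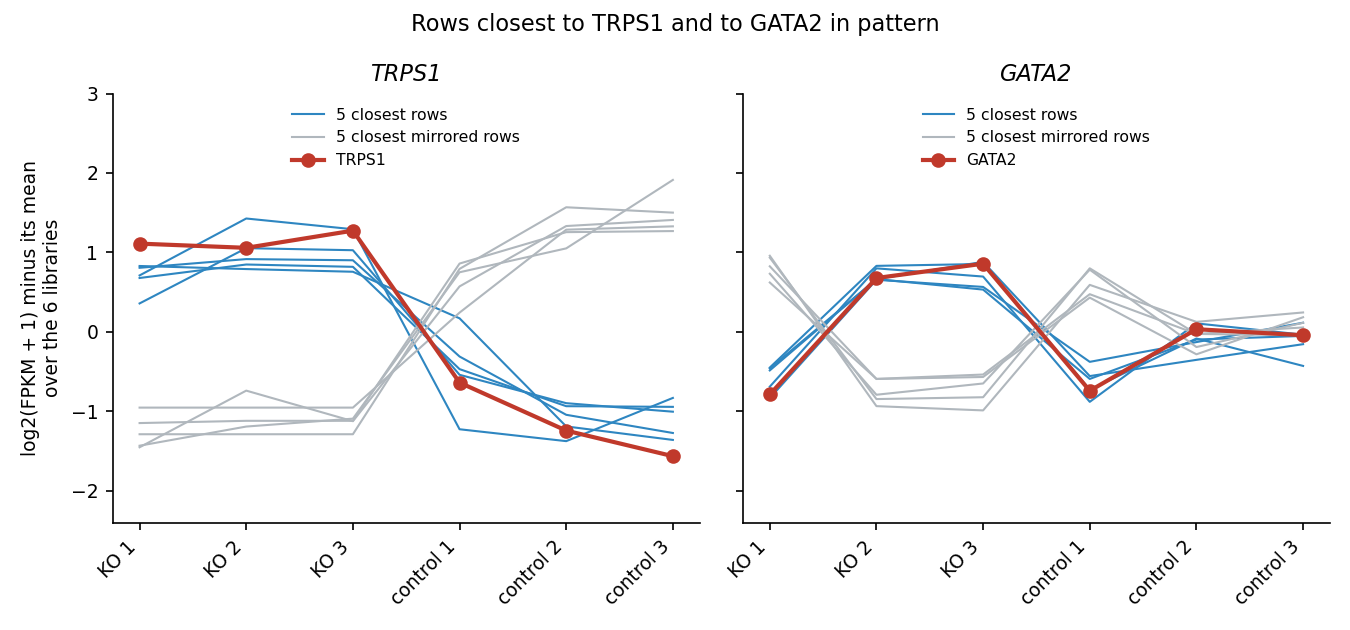
Log2(FPKM + 1) minus its mean over the 6 libraries for TRPS1 (left panel) and GATA2 (right panel) in red, with the 5 closest rows in blue and the 5 closest mirrored rows in grey, KO libraries first. The TRPS1 panel separates KO from vector control, and the GATA2 panel sets library 1 of each group apart from libraries 2 and 3.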

How the data were processed

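Total RNA of 6 libraries of MIA PaCa-2 cells was sequenced, and the values used are the FPKM that the authors deposited, 1 column per library. HISAT2, cutadapt and FastQC are named with the build hg19, per the submitters' processing notes. Neither versions nor strand handling, gene annotation or the FPKM program were given in the sources used, so reads of antisense partners cannot be told apart. Low values of short genes with 1 transcript were searched for whole-read steps. The best concentration was 0.493, where exact multiples give 1, and depth stayed unknown.

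Log2(FPKM + 1) values were tested with limma 3.58.1 in R 4.3.3 (lmFit, eBayes with trend, two-sided, no covariates) over the 9624 rows with at least 1 FPKM in at least 3 libraries. Calls needed an adjusted p (Benjamini-Hochberg, all tested rows) below 0.05. Such fold changes understate the change of low genes. The script was tested on simulated data. Members, lists and naming rules were chosen with earlier results of these data known. The naming rule took all members, the 5 closest and 5 mirrored rows of TRPS1, called list members or, where a list had none, its 3 most abundant, and all chromosome 8 neighbours. Other genes named (among them MTA2, TFAP2A, the low genes of the lists and the rows like GATA2) were chosen after their values were seen. Of the list entries, 179 had their own row, 3 another symbol, 15 only a joined row and 2 none. Joined rows were left out of list counts. Fingers were found as Cys-X2-Cys-X17 or 18-Cys-X2-Cys in translated GENCODE 29 transcripts. Alternatives were other pseudocounts (0.1, 0.5), no filter or 5 FPKM, median scaling, quantile normalization, no trend, robust limma with array weights, a replicate block, and each library left out.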

Additional observations from a re-analysis of the deposited data

How the results depend on the processing

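TRPS1 kept its direction in all 15 alternatives and was among the rows called in 12. It was not called without KO 2, without KO 3 or with the replicate block. TRPS1 was selected on this same contrast, so these counts are no test of it. Of all tested rows, 0.301% were called without KO 2, 0.26% without KO 3 and 0.0727% with the block, against 41.8% with array weights. The log2 fold change of TRPS1 was 2.82 with a pseudocount of 0.1 and ran from 2.09 to 2.55 with 1 library left out. Its place from the highest of all rows lay between 1 and 11. GATA2 and GATA4 also kept their signs, while GATAD2A became positive without KO 1 (0.13), without vector control 1 (0.03) and with array weights (0.21), and GATAD2B without vector control 3 (0.14). Over all rows, limma called 49 higher and 81 lower in KO cells. The counts were 110 and 131 without a filter, 13 and 46 at 5 FPKM, 2596 and 1424 with robust limma and array weights, and 31 higher and 99 lower with quantile normalization. With 1 library left out they ran from 1 to 841 higher and from 24 to 488 lower, both highest without vector control 1. In total they were 1329 without that library, 39 without vector control 2 or 3, 121 without KO 1, 29 without KO 2 and 25 without KO 3, against 130 with all libraries. Among list genes the counts of 1 higher and 1 lower became 0 higher at 5 FPKM, where LYZ was not tested, 4 lower without a filter (SNAI2, KLF5, GLI3 and TNS4), and 15 higher and 12 lower under robust fitting with array weights. With 1 library left out they ran from 0 to 9 higher and from 1 to 5 lower.

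The labels tie same-numbered libraries by number alone, and their deviations over all tested rows correlated at -0.374, -0.153 and -0.264, so the numbers were not taken to pair them. Library 1 of each group had the lowest array weight of its group, 0.333 for KO 1 and 0.151 for vector control 1. With the replicate number as a block, limma called 0 higher and 7 lower over all rows and 0 and 0 among list genes, while TRPS1 stayed at 2.30 but was not called. The SE of GATA2 was 0.25 with the block and 0.45 without it. SNAI2 and LYZ lost their calls with the block too (adjusted p = 0.0692 and 0.0959). The depth is unknown, so levels near 0, as for GATA3 and GATA6, set no limit on a difference.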
